A study of Mus musculus with 8 samples.

Results

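Tnf, Il23a and Icam1 are classical target genes of the transcription factor NF-kB, and they were followed here in mouse keratinocytes that carry the v-rasHa oncogene. They are 3 of the 9294 genes tested in the series. They were chosen because their signals were higher in Nfkbiz knockout cells than in wild-type cells, and each is measured by 1 probe set that names no other gene. The data are one-colour oligonucleotide arrays of total RNA labelled with biotin. The KO RAS group held 4 arrays of keratinocytes that lack Nfkbiz, and the WT RAS group held 4 arrays of wild-type keratinocytes. Cells of both groups were of the C57BL/6 strain and were transduced with v-rasHa, a viral form of the Hras oncogene, 3 days before RNA was taken. The labels call the 4 arrays of a group biological replicates and do not say how Nfkbiz was removed or in which cells. Both groups carried the oncogene, so values without it are not part of the comparison. Nfkbiz was not among the genes analysed here, and the knockout could not be checked from these values.

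NF-kB is a family of dimeric factors that are held in the cytoplasm by inhibitors and enter the nucleus after signals from cytokine or innate immune receptors. Nfkbiz encodes IkBz, an unusual member of the inhibitor family that stays in the nucleus and acts with NF-kB on a subset of its target genes. Tnf encodes tumour necrosis factor, a cytokine made on the cell surface and released by a protease. Il23a encodes the p19 subunit of interleukin-23, which pairs with the product of Il12b and sustains T cells that make interleukin-17, a circuit well known from inflamed skin. Icam1 encodes a surface adhesion molecule of the immunoglobulin family that binds the integrin LFA-1 on leukocytes, and keratinocytes display it in inflamed epidermis.

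The upstream sequences of Tnf and Icam1 are shown because both genes are known to be driven by NF-kB through sites close to their start. A window of 250 bases before the annotated start was found for 2 of the 3 genes in the RefSeq promoter table of build GRCm38.p6. The Tnf window lies at chr17:35202008-35202257 on the minus strand and the Icam1 window at chr9:21015690-21015939 on the plus strand. Each is written 5′ to 3′ on the strand of its gene, with capitals for GGNNNTTCC, a loose form of an NF-kB site read on either strand, and for TATAAA, the core of a TATA box.
Tnf: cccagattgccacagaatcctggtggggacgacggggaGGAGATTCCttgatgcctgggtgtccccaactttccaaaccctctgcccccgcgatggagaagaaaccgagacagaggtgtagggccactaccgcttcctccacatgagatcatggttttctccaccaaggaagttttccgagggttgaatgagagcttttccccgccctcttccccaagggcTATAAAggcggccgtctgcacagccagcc
Icam1: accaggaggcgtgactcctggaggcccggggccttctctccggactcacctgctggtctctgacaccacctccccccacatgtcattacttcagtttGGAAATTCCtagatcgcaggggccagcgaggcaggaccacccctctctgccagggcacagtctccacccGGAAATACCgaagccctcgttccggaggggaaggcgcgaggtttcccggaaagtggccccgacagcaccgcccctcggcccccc

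The Tnf window held GGAGATTCC, a match to GGNNNTTCC, from base -212 to base -204 before the start, and TATAAA from base -29 to base -24. The Icam1 window held 2 matches to GGNNNTTCC. One was GGAAATTCC from base -153 to base -145, which matches on both strands, and the other was GGAAATACC from base -84 to base -76, which matches on the opposite strand. The letters GGNNNTTCC occurred on either strand in 15.7% of the 32536 different windows of this length in the table, TATAAA in 12.3% and the full GGAAATTCC in 0.289%. The canonical kappaB motif occurred in 7.28% of windows and in neither of these. Motifs were picked after the sequences were read. A match describes the letters only.

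Tnf had log2 signals of 8.26, 8.14, 8.22 and 8.14 in KO RAS replicates 1 to 4, against 8.00, 7.94, 7.87 and 7.88 in WT RAS replicates 1 to 4. Every KO RAS array lay above every WT RAS array, and the lowest KO RAS value exceeded the highest WT RAS value by 0.145, slightly more than the spread of 0.120 within KO RAS and 0.130 within WT RAS. The means were 8.19 ± 0.06 in KO RAS and 7.92 ± 0.06 in WT RAS (SD, n = 4 each). The log2 fold change was 0.27 ± 0.05 (moderated SE), a signal 1.21-fold higher in KO RAS.

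Il23a had log2 signals of 7.80, 7.64, 7.82 and 7.61 in KO RAS replicates 1 to 4, against 7.35, 7.38, 7.29 and 7.17 in WT RAS replicates 1 to 4. The groups did not overlap, with a gap of 0.234 between them and spreads of 0.205 in KO RAS and 0.208 in WT RAS. Il23a varied the most of the 3 genes within a group, and its means were 7.72 ± 0.11 in KO RAS and 7.30 ± 0.09 in WT RAS (SD, n = 4 each). The log2 fold change was 0.42 ± 0.07 (SE), or 1.34-fold.

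Icam1 had log2 signals of 9.09, 8.97, 8.91 and 9.01 in KO RAS replicates 1 to 4, against 8.45, 8.41, 8.52 and 8.37 in WT RAS replicates 1 to 4. Its gap of 0.390 between the groups was the widest of the 3 genes, wider than the spreads of 0.182 in KO RAS and 0.148 in WT RAS. The means were 8.99 ± 0.08 in KO RAS and 8.44 ± 0.06 in WT RAS (SD, n = 4 each), and the log2 fold change was 0.56 ± 0.06 (SE), or 1.47-fold.

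**Figure D1:**
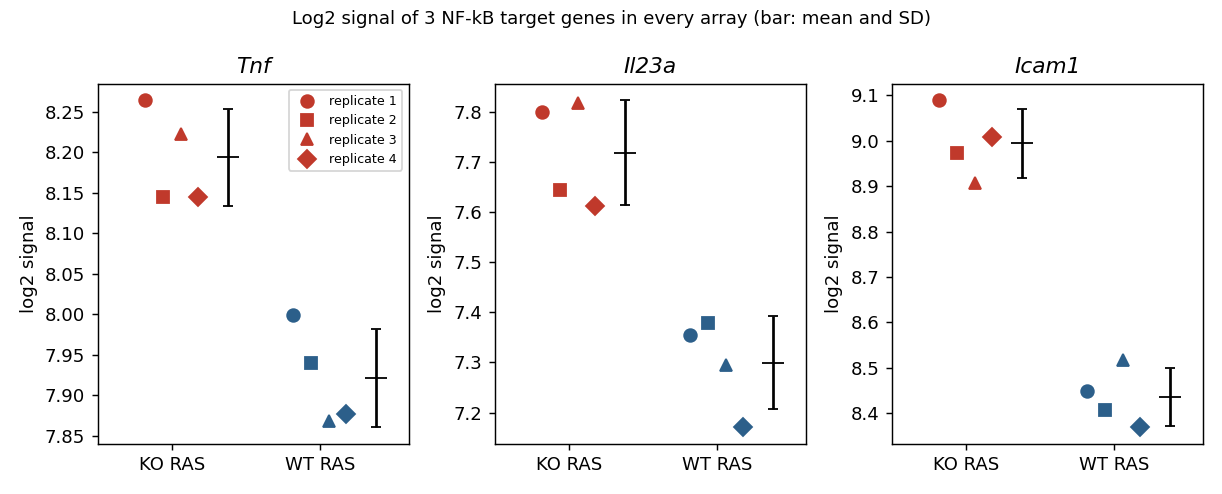
Log2 signal of Tnf, Il23a and Icam1 in each of the 4 KO RAS and 4 WT RAS arrays, with 1 symbol per replicate number and a bar for the mean and SD. The vertical axes differ between panels and do not start at 0. In each panel every KO RAS array lies above every WT RAS array.

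These 3 genes were chosen from this contrast, so their differences are a description and no test of them is given. For scale, 415 of the 9294 genes were higher in KO RAS at a limma adjusted p below 0.05, which is 4.47% of genes, and 412 were lower, which is 4.43%, or 8.9% in either direction. At an unadjusted p below 0.05 limma gave 1932 genes, or 20.8%. With each array centred on its median, 482 were higher and 314 lower. Values of the groups did not overlap, with KO RAS on top, for 7.91% of genes, and with KO RAS below for 7.97%. The log2 fold changes of Tnf, Il23a and Icam1 ranked at positions 307, 147 and 82 from the highest. All 3 changes were smaller than 2-fold, and all 3 genes gave signals above the upper quartile of every array, which lay between 6.89 and 6.99. Array medians lay between 4.49 and 4.57.

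**Figure D2:**
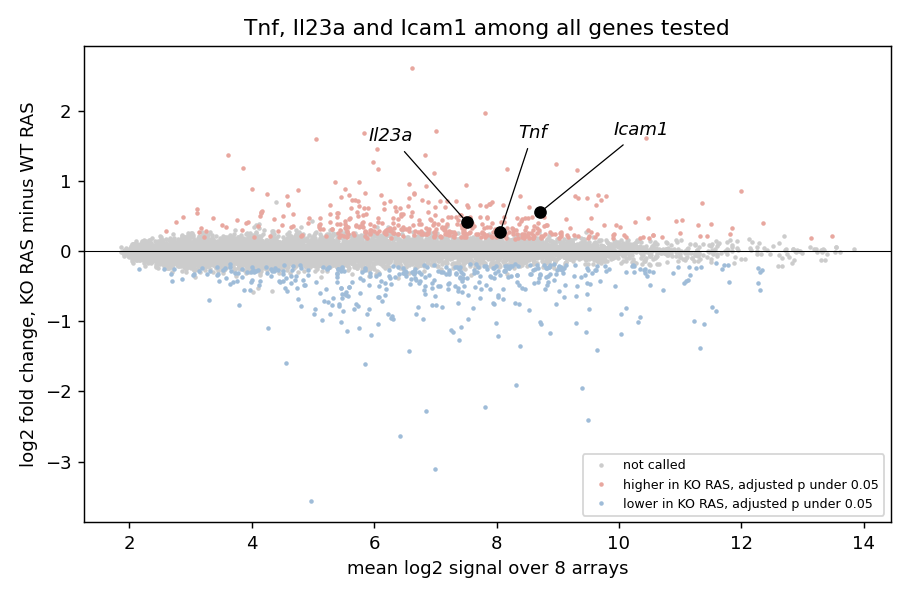
Log2 fold change of KO RAS minus WT RAS against the mean log2 signal over 8 arrays for each of the 9294 genes tested, with called genes in colour. Tnf, Il23a and Icam1, in black, lie above 0, with log2 fold changes of 0.27, 0.42 and 0.56.

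Within a genotype the arrays did not rank the 3 genes alike. Tnf and Il23a were above their KO RAS means in replicates 1 and 3 and below them in replicates 2 and 4. Icam1 was above its KO RAS mean in replicates 1 and 4, and its lowest KO RAS value was in replicate 3, at 0.087 below the mean. Among WT RAS arrays, Il23a was lowest in replicate 4, at 0.129 below its mean, and Icam1 was highest in replicate 3, at 0.082 above its mean. Over all 8 arrays the centred profiles of Tnf and Il23a had a root mean square distance of 0.090 on the log2 scale. It was 0.120 between Il23a and Icam1 and 0.161 between Tnf and Icam1. These distances include the differences between the log2 fold changes, so they do not measure likeness within a genotype.

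The pathway that acts on these genes was read from a list of NF-kB subunits, inhibitors and kinases. Of 9 measured genes of 27 listed, 4 rose, 1 fell and 4 were not called by limma. Among all genes 4.47% rose and 4.43% fell. At an unadjusted limma p below 0.05 there were 8 of the 9, against 20.8% of all genes. This list and those that follow were drawn up with results of these arrays known, so their counts are not independent evidence. The list median was 0.12 on the log2 scale, where the median of all genes was -0.01. Relb, a subunit of the non-canonical arm, had means of 7.32 ± 0.08 in KO RAS and 6.68 ± 0.19 in WT RAS (SD, n = 4 each; limma adjusted p = 0.000922), and WT RAS replicate 4 stood apart from its group at 6.97. The other genes that rose were Nfkbid, a nuclear relative of Nfkbiz, with 0.46 ± 0.09 (SE), Tnip1, whose product binds the inhibitor A20, with 0.24 ± 0.05, and Rela, the p65 subunit, with 0.23 ± 0.05. The kinase gene Ikbke fell by 0.25 ± 0.06. Its call was lost without KO RAS replicate 2 (adjusted p = 0.053). Those of Rela and Tnip1 were lost without KO RAS replicate 1 (adjusted p = 0.0537 and 0.0501) or WT RAS replicate 2 (0.059 and 0.0512), and that of Rela also without WT RAS replicate 1 (0.0506). Other settings added falls. Myd88, an adaptor of innate immune receptors, and Bcl3, a nuclear relative of Nfkbiz, were also called lower with quantile normalization repeated (adjusted p = 0.0402 and 0.0401) and with an eBayes trend (0.00868 and 0.0374), so that 4 rose and 3 fell. Myd88 alone was added with the dimmest 25% of genes left out (0.0373) and without KO RAS replicate 3 (0.014).

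Other direct NF-kB targets moved in both directions. Of 16 measured genes of 38 listed, 7 rose, 2 fell and 7 were not called by limma, and the list median was 0.18. Among all genes 4.47% rose and 4.43% fell. At an unadjusted limma p below 0.05 there were 10 of the 16, against 20.8% of all genes. Results of these arrays were known when this list was drawn up too, so the counts are a description only. The chemokine genes Ccl5 and Cxcl10, which draw T cells and also respond to interferon, rose by 1.97 ± 0.08 and 1.72 ± 0.11 (SE). Irf1, a transcription factor shared by the NF-kB and interferon pathways, rose by 0.48 ± 0.06, with KO RAS replicate 2 apart from its group at 8.66. Il15, the gene of a cytokine for lymphocytes, rose by 0.30 ± 0.07 at a KO RAS mean of 4.00, below the array medians. Relb, Nfkbid and Tnip1 are in this list too. The genes that fell were Cxcl2, a neutrophil chemokine, by 0.56 ± 0.08 and Ccl2, a monocyte chemokine, by 0.54 ± 0.08. Genes not called included Ier3, an early stress gene, with 0.02, Junb, a subunit of the AP-1 factor, with -0.07 and Zfp36 with -0.11 on the log2 scale.

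Genes known to depend on IkBz were lower. Of 18 measured genes of 26 listed, none rose, 16 fell and 2 were not called by limma, where 4.43% of all genes fell. The list median was -0.90. The list was drawn up with results of these arrays known, so its direction is not independent evidence. Lcn2, an iron-binding defence protein gene, had a log2 fold change of -3.56 ± 0.13 (SE), at a KO RAS mean of 3.18, below the lower quartile of every array (3.33 to 3.39), and a WT RAS mean of 6.74. Background was not measured, so whether this KO RAS signal stands above it is not known. The log2 fold changes were, for Il1f6, an interleukin-36 gene, -3.11 ± 0.17, and for Csf3, a growth factor gene for neutrophils, -2.27 ± 0.08. For Ccl20, a chemokine for cells of the interleukin-17 circuit, it was -1.91 ± 0.05 and for the growth factor gene Csf2 it was -1.35 ± 0.09. These genes lay below 0 and Tnf, Il23a and Icam1 above it in the same arrays. Both sides were chosen with results of these arrays known, so the opposite directions are a description only. The 2 genes not called were the cytokine gene Il6, with -0.03 at a KO RAS mean of 2.37, below the array medians, and Edn1, the endothelin-1 gene, with 0.08. The call of Defb3 was lost without any array but KO RAS replicate 4 (limma adjusted p up to 0.0915). That of Il1f8 was lost without KO RAS replicate 1 or 3 or WT RAS replicate 2 or 3 (up to 0.0628), and that of Saa3 without KO RAS replicate 2 or 4 or WT RAS replicate 2 or 4 (up to 0.0657).

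**Figure D3:**
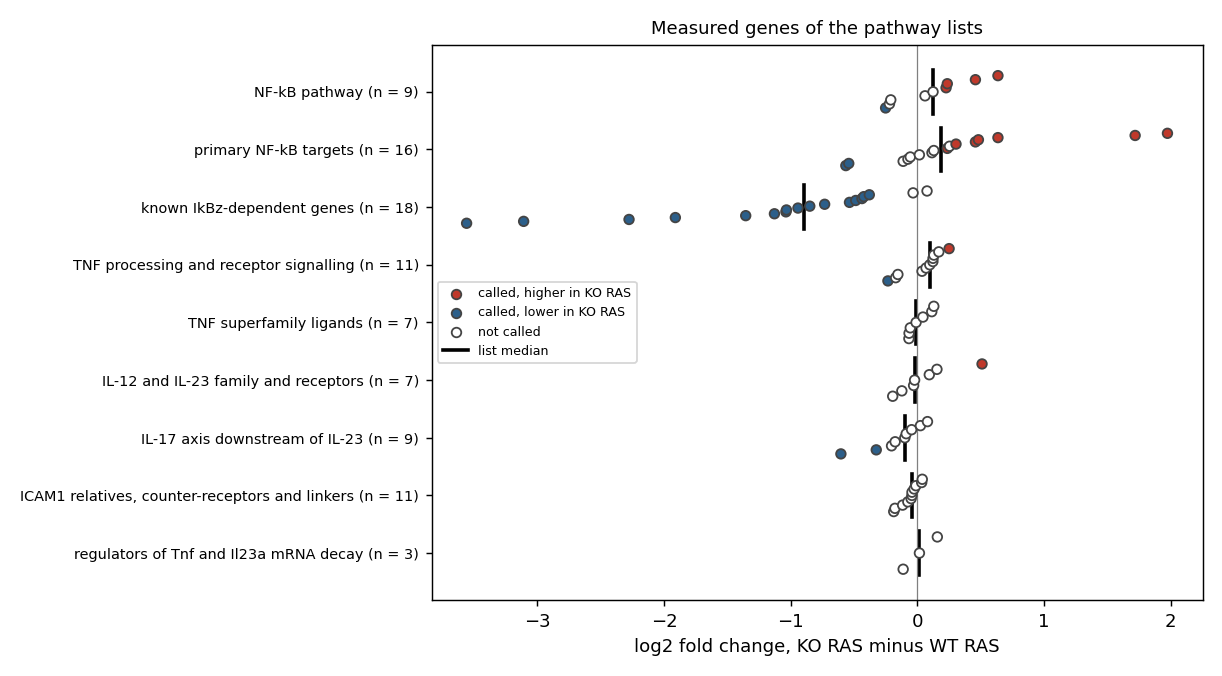
Log2 fold change of KO RAS minus WT RAS for each measured gene of the 9 pathway lists, filled where called and with a bar at the list median. Direct NF-kB targets lie on both sides of 0, while 16 of 18 genes known to depend on IkBz were called lower and none was called higher.

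Upstream windows of the listed genes were searched in the same way as those of Tnf and Icam1. Among direct targets with a window, 6 of 11 held GGNNNTTCC and 7 of 11 held the canonical kappaB motif. The 7 were Cxcl10, Cxcl2, Irf1, Nfkbid and Tnip1, which were called, and Ier3 and Ltb, which were not. Among genes known to depend on IkBz, 4 of 14 held GGNNNTTCC and 4 of 14 the canonical motif. Of all genes tested with a window, the canonical motif was found in 15.1% of the 324 called higher, 9.97% of the 321 called lower and 8.88% of the 6656 not called. For GGNNNTTCC the shares were 29.0% of those called higher, 19.9% of those called lower and 18.6% of those not called. These are shares of windows that hold the letters, and no test was made of them.

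The pathway that Tnf feeds was measured through its receptor and the proteins behind it. Tnfrsf1a, which encodes the main receptor for TNF on epithelial cells, had log2 signals of 8.674, 8.729, 8.815 and 8.606 in KO RAS replicates 1 to 4, against 8.876, 8.933, 8.947 and 8.997 in WT RAS replicates 1 to 4. All KO RAS values were below all WT RAS values, opposite in direction to Tnf. The log2 fold change was -0.23 ± 0.06 (SE; limma adjusted p = 0.0314). This call was lost in 6 of the 8 fits that left out 1 array, those without KO RAS replicate 1, 2 or 4 or WT RAS replicate 2, 3 or 4, with an adjusted p of up to 0.0841. It was also lost with arrays centred on their medians (0.0722). Mlkl, the executioner of necroptosis, rose by 0.25 ± 0.06 (adjusted p = 0.0219), a call lost without KO RAS replicate 1, 2 or 4 or WT RAS replicate 1, 2 or 3 (adjusted p up to 0.0677). Its KO RAS replicate 3, at 7.19, and WT RAS replicate 4, at 7.15, each stood apart from their group. In the fit used throughout, these were the only calls, 1 in each direction, among 11 measured genes of TNF release and receptor signalling of 30 listed, of which 8 had an unadjusted p below 0.05, against 20.8% of all genes, and the list median was 0.10. An eBayes trend gave 3 genes higher, with Rhbdf1 and Casp8 added, and 3 lower, with Rhbdf2 and Ripk3 added (adjusted p = 0.00763, 0.0191, 0.0325 and 0.0124). Ripk3 was also called lower with quantile normalization repeated (0.0477) and with the dimmest 25% of genes left out (0.0417). Rhbdf1 was called higher without WT RAS replicate 4 (0.0462), which stood apart from its group at 9.45. The others included Rhbdf1 with 0.17 and Rhbdf2 with -0.15, partners of the protease that releases TNF, Ripk3, a kinase of necroptosis, with -0.17 and Casp8, the initiator caspase, with 0.12 on the log2 scale.

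The measured relatives of Tnf gave no call. Of all genes tested, 8.9% were called and 20.8% had an unadjusted limma p below 0.05. A list of 7 genes is therefore too short to read much into the lack of a call. Of 7 measured ligands of the TNF superfamily of 17 listed, none was called by limma, also at an unadjusted p of 0.05, and the list median was -0.01. KO RAS means of 6 of the 7 lay below the array medians. Lta and Ltb, the lymphotoxin genes next to Tnf, had log2 fold changes of 0.13 ± 0.07 and -0.06 ± 0.08 (SE; limma adjusted p = 0.341 and 0.770). Their signals of 3.78 and 4.05 in KO RAS and 3.65 and 4.11 in WT RAS lay below the array medians. Tnfsf9, which encodes a ligand for activated T cells, had a KO RAS mean of 6.82 and a log2 fold change of -0.07.

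Relatives of Il23a and the receptors for its product were mostly dim, with KO RAS means below the array medians for 6 of 7 genes. These were the measured genes, of 13 listed, of the interleukin-12 family and its receptors. Of the 7, 1 rose, none fell and 6 were not called by limma, where 4.47% of all genes rose. At an unadjusted limma p below 0.05 there were 2, against 20.8% of all genes. The list median was -0.02. The gene that rose was Stat4, a transcription factor activated by these cytokines in lymphocytes, by 0.51 ± 0.09 (SE; adjusted p = 0.00468), with means of 4.39 in KO RAS and 3.88 in WT RAS, both below the array medians. Il12rb1, a subunit of the interleukin-23 receptor, had 3.60 ± 0.09 in KO RAS and 3.63 ± 0.22 in WT RAS (SD, n = 4 each; limma adjusted p = 0.917). Il12a and Ebi3, subunits of related cytokines, had log2 fold changes of -0.12 and -0.02. Tyk2, the kinase of these receptors, had 0.15 at a KO RAS mean of 7.79. Il12b and Il23r were not analysed here.

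Downstream of interleukin-23 stand the cytokines of its target lymphocytes and the receptors through which epithelial cells respond to them. Of 9 measured genes of 17 listed, none rose, 2 fell and 7 were not called by limma, and the list median was -0.10. Among all genes 4.43% fell. At an unadjusted limma p below 0.05 there were 4 of the 9, against 20.8% of all genes. Il22ra1, a subunit of the interleukin-22 receptor of epithelia, had means of 5.22 in KO RAS and 5.82 in WT RAS and fell by 0.60 ± 0.06 (SE; adjusted p = 8.6e-05). Traf3ip2, the adaptor of the interleukin-17 receptor, fell by 0.32 ± 0.05 (adjusted p = 0.00141). Il17rc, a subunit of that receptor, had -0.18, and Il17a itself had 0.02 at a KO RAS mean of 4.46.

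The partners and relatives of Icam1 gave no call, where 8.9% of all genes were called. Of 11 measured genes of 23 listed, limma called none in either direction, 2 had an unadjusted p below 0.05, a share near the 20.8% of all genes, and the list median was -0.04. KO RAS means of 9 of the 11 lay below the array medians. Itgb2 and Itgam, integrin genes of leukocytes whose products bind ICAM-1, had signals of 3.76 ± 0.14 and 2.90 ± 0.13 in KO RAS, against 3.81 ± 0.28 and 2.91 ± 0.19 in WT RAS (SD, n = 4 each; limma adjusted p = 0.888 and 0.971). Icam4 and Icam5, which lie next to Icam1, had log2 fold changes of -0.12 ± 0.07 and -0.08 ± 0.09 (SE; limma adjusted p = 0.409 and 0.734). Icam2, a relative of endothelium and leukocytes, had 0.03, and Actn4, a cytoskeletal linker of the ICAM-1 tail, had -0.04. Of 3 measured regulators of Tnf and Il23a mRNA decay of 15 listed, limma called none and 1, Rc3h1, had an unadjusted p below 0.05. Rc3h1, an RNA-binding repressor, had 0.16 and was called higher with an eBayes trend (adjusted p = 0.0344). On the log2 scale Mapkapk2, a kinase that stabilises Tnf mRNA, had 0.02 and Zfp36, whose product tristetraprolin destabilises it, had -0.11.

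Measured genes near the 3 genes on their chromosomes, at most 6 coding genes away, were not called, where 8.9% of all genes were. Among the 3 nearest measured genes on each side, 18 in all, limma called none, and 1, Spryd4, had an unadjusted p below 0.05, where 20.8% of all genes did. Log2 fold changes were -0.06 to 0.13 around Tnf on chromosome 17, in the order Aif1, Lst1, Ltb, Tnf, Lta, Nfkbil1 and Atp6v1g2. They were -0.11 to 0.06 around Il23a on chromosome 10, from Spryd4, Apon and Apof on one side to Pan2, Ankrd52 and Slc39a5 on the other. Around Icam1 on chromosome 9 they were -0.17 to 0.05, from Angptl6, Ppan and Mrpl4 to Icam4, Icam5 and Zglp1. Pan2, the coding gene next to Il23a, had 7.36 ± 0.06 in KO RAS and 7.30 ± 0.06 in WT RAS, and Mrpl4, the coding gene next to Icam1, had 8.60 ± 0.09 in KO RAS and 8.64 ± 0.02 in WT RAS (SD, n = 4 each). Of the other neighbours, Spryd4, Lst1, Nfkbil1, Angptl6, Ppan and Zglp1 had KO RAS means of 4.65 to 8.20, above the array medians. The rest were dim. KO RAS means of Aif1, Ltb, Lta, Atp6v1g2, Apon, Apof, Ankrd52, Slc39a5, Icam4 and Icam5 were 3.24 to 4.49, below the array medians. A difference between a gene and its neighbours was not tested.

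**Figure D4:**
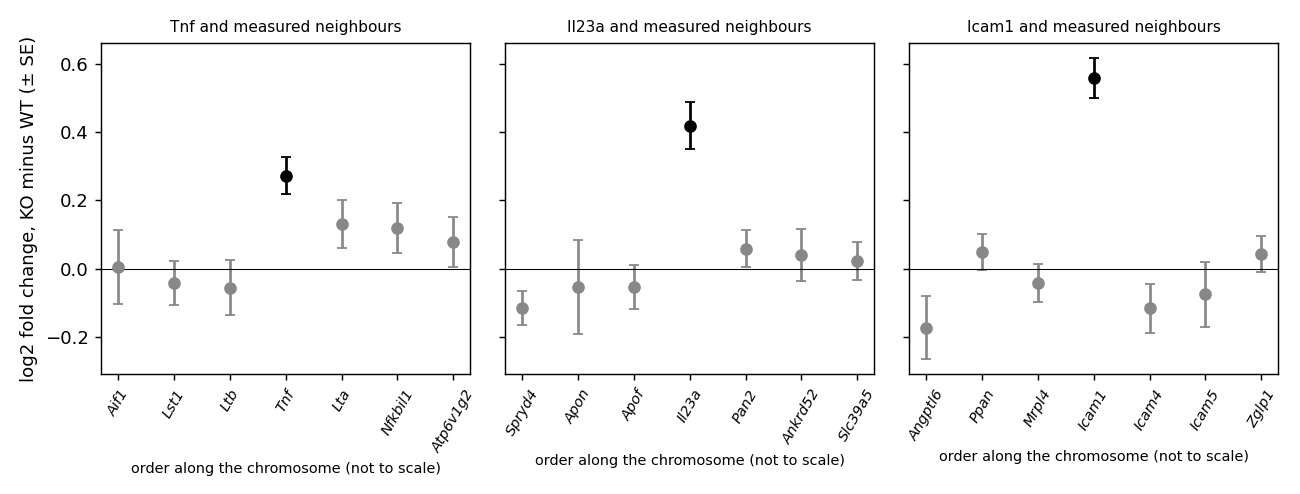
Log2 fold change of KO RAS minus WT RAS with its SE for Tnf, Il23a and Icam1, in black, and the 3 nearest measured genes on each side, in grey, in chromosome order. The 18 neighbours lie between -0.17 and 0.13, and the 3 genes lie at 0.27, 0.42 and 0.56.

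Likeness of pattern was measured as the root mean square distance between log2 profiles over the 8 arrays, each centred on its own mean, so that genes with the same difference between genotypes and the same ranking of arrays lie close. Nearest to Tnf were Rab12, at a distance of 0.033, Smim3, Hdac8, Frmd8 and Rab19, where the median distance of all genes from Tnf was 0.181. Rab12 and Rab19 encode small GTPases of vesicle traffic, Hdac8 a histone deacetylase and Frmd8 a partner of the rhomboid-like proteins behind TNF release. Frmd8 had means of 9.18 ± 0.05 in KO RAS and 8.91 ± 0.05 in WT RAS (SD, n = 4 each). Nearest to Il23a were Bex3, BC064078, Ccdc90b, Psme1 and Mcam, at 0.046 to 0.065 against a median of 0.251. Psme1, a proteasome activator subunit, and Mcam, an adhesion molecule of the immunoglobulin family, had log2 fold changes of 0.38 and 0.49. Nearest to Icam1 were Nmi, Cavin3, Eva1a, Mcam and Gadd45a, at 0.068 to 0.083 against a median of 0.307. Nmi encodes a partner of STAT proteins and Gadd45a a stress sensor, with log2 fold changes of 0.49 and 0.63. Mcam was among the nearest genes of both Il23a and Icam1. All profiles share the same 8 arrays and the same split by genotype.

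**Figure D5:**
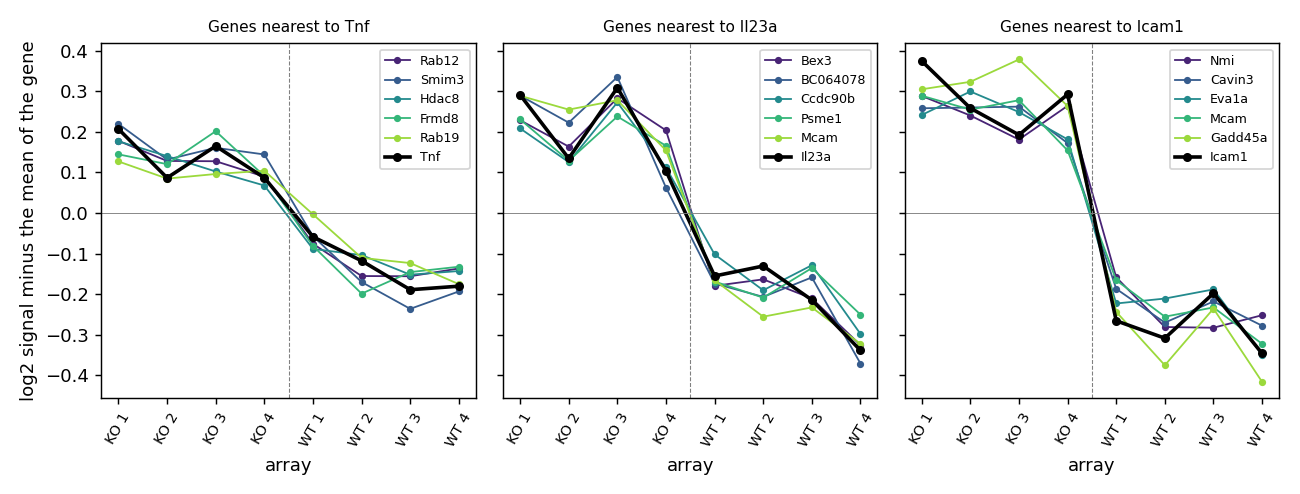
Log2 signal minus the mean of the gene in each of the 4 KO RAS and 4 WT RAS arrays for Tnf, Il23a and Icam1, in black, and the 5 genes with the smallest distance to each, in colour. Lines join the arrays of 1 gene and mark no order. Nearest distances are 0.033 to 0.049 for Tnf and 0.068 to 0.083 for Icam1.

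Tnf, Il23a and Icam1 are also expressed by leukocytes, and Icam1 by endothelium and fibroblasts, so markers of these cells were read in the same arrays. In bulk RNA, fewer cells of a type and less RNA per cell cannot be told apart. Of all genes tested, 4.47% rose, 4.43% fell and 20.8% had an unadjusted limma p below 0.05. At that unadjusted threshold were 2 of the 7 keratinocyte, 5 of the 15 macrophage and dendritic cell and 1 of the 9 T and NK cell markers. Of 7 measured keratinocyte markers of 13 listed, none rose and Col17a1 fell by 0.31. Krt5, the basal keratin, was at 13.29 in KO RAS and 13.42 in WT RAS, and the summed linear signal of the list was 24610 to 26380 in KO RAS and 25870 to 26770 in WT RAS. Of 15 measured macrophage and dendritic cell markers of 22 listed, none rose and Tyrobp fell by 0.25. Their summed signal was 369.8 to 389.3 in KO RAS and 385.9 to 423.1 in WT RAS, and KO RAS means of 10 of the 15 lay below the array medians, those of Itgam, Cd163, Mrc1 and Cd207 lowest at 2.33 to 3.44. The other 5 lay above them, with KO RAS means of 6.30 for Cd68, 5.86 for Cd14, 5.41 for H2-Eb1, 5.26 for Lyz2 and 4.79 for Cd74. Of 9 measured T and NK cell markers of 15 listed, none rose and Thy1, which fibroblasts also express, fell by 0.61. The other 8 were not called. Summed signals were 198.9 to 227.3 in KO RAS and 259.3 to 280.9 in WT RAS. Thy1 weighed most in these sums, with means of 6.53 in KO RAS and 7.13 in WT RAS. Among 8 measured endothelial markers of 9 listed, limma called none, 1 had an unadjusted p below 0.05, and summed signals were 166.5 to 190.3 in KO RAS and 184.0 to 192.2 in WT RAS.

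The remaining marker lists had lower summed signals in KO RAS, as the T and NK cell list did. Of 6 measured fibroblast markers of 13 listed, 5 fell and Postn rose by 1.47, with summed signals of 490.5 to 565.9 in KO RAS and 760.1 to 825.1 in WT RAS. Of 9 measured neutrophil and mast cell markers of 12 listed, S100a8 and S100a9, which keratinocytes also make, fell by 1.03 and 0.85 and 7 were not called, with summed signals of 3959 to 4471 in KO RAS and 7841 to 8341 in WT RAS. Of 3 measured melanocyte markers of 8 listed, Pmel fell by 0.28, with summed signals of 2183 to 2689 in KO RAS and 2816 to 2947 in WT RAS. An unadjusted limma p below 0.05 was found for 6 of the 6 fibroblast, 3 of the 9 neutrophil and mast cell and 3 of the 3 melanocyte markers. Over all genes this share was 20.8%, and 4.47% rose and 4.43% fell. No value on the log2 scale is a true zero, so a dim marker is not shown to be absent. The part of these cells in the results was not tested.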

How the data were processed

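The deposited table covered 11373 probe sets on 8 arrays. Its deposited values were read as log2 signals because of their range. How the authors summarised and normalized them, and on which build, is not given in the sources used here. Probe sets were named through the platform annotation: 9374 had 1 symbol, 479 several and 1520 none. Of several such probe sets of a gene the brightest by mean was used, which gave 9294 genes, of which 9201 matched the GRCm38.p6 gene table by Entrez identifier. Differences were fitted in limma 3.58.1 (R 4.3.3; lmFit, then eBayes) without covariates, as KO RAS minus WT RAS, with Benjamini-Hochberg adjustment over the 9294 genes and a threshold of 0.05. A gene rose, fell or was called where it passed. The functions were tested on simulated data. P-values reflect the spread among biological replicates, whose number limits the precision. Arrays of 1 genotype differed with an SD of 0.157 to 0.175 across probe sets, so none was a copy of another. This spread does not show how separate the replicates were.

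The members, lists and naming rule were chosen with earlier results of these data known. Named are the 3 genes, up to 5 called genes per pathway list and direction, the 5 nearest profiles, 3 measured neighbours per side, and the receptors and partners. Named in addition after their values were seen were Il15, Ier3, Junb, Zfp36, Il6, Edn1, Defb3, Il1f8, Saa3, Rhbdf1, Rhbdf2, Ripk3, Casp8, Bcl3, Myd88, Psmb9, Tnfsf9, Il12a, Ebi3, Tyk2, Il17rc, Il17a, Icam2, Actn4, Rc3h1, Mapkapk2 and the cell type markers with values. The alternatives left out each array in turn, used the replicate number as a block, fitted eBayes with a trend, tested all probe sets or their mean per gene, dropped the dimmest 25% of genes, centred arrays on medians or repeated quantile normalization.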

Additional observations from a re-analysis of the deposited data

Results flagged for a closer look

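In 9 of 200 groups of 4 arrays, 1 per genotype for each of the 100 genes named with values, 1 array stood apart from the others by Dixon's ratio, where chance gives about 1 in 20. None of them was a group of Tnf, Il23a or Icam1. Relb was at 6.97 in WT RAS replicate 4, above the other WT RAS arrays and below every KO RAS array. Irf1 was at 8.66 in KO RAS replicate 2, the lowest of its group. Mlkl was at 7.19 in KO RAS replicate 3 and at 7.15 in WT RAS replicate 4, each apart from its group. Rhbdf1 was at 9.45 in WT RAS replicate 4, the highest of its group and below every KO RAS array. Cavin3 was at 9.71 in KO RAS replicate 4. Among neighbours, Ankrd52 was at 4.46 in KO RAS replicate 1, Atp6v1g2 at 4.24 in KO RAS replicate 3 and Zglp1 at 4.58 in KO RAS replicate 2.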

How the results depend on the processing

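Over the 15 alternatives the log2 fold changes were 0.249 to 0.299 for Tnf, 0.376 to 0.454 for Il23a and 0.527 to 0.588 for Icam1. Leaving out an array could not reverse a direction, because the groups did not overlap for any of these genes. The block, the trend and the changes in probe sets or genes tested left the estimates as they were by design. These ranges therefore say little about direction. Leaving out each array gave 598 to 687 called genes in place of 827, with 288 to 350 higher and 305 to 352 lower in KO RAS. With arrays centred on their medians 482 genes were called higher and 314 lower, in place of 415 and 412, and the median of all genes moved to 0.015 from -0.012. Of the 32 called list genes, 8 lost their call in at least 1 alternative, and 24 kept it. Another 9 gained one: Bcl3, Myd88, Ripk3, Il17rc, Psmb9, Rhbdf1, Rhbdf2, Casp8 and Rc3h1. In the NF-kB pathway list, 2 genes rose in place of 4 without KO RAS replicate 1 or WT RAS replicate 2. The replicate numbers did not pair the samples: deviations of same-numbered arrays correlated at -0.049 to 0.086 across genes, and only KO RAS replicate 1 correlated best with its own number. With the replicate block 659 genes were called, and 2 list genes, Rela and Tnfrsf1a, lost their call (limma adjusted p = 0.0549 and 0.0714). Depth does not apply to arrays, and signal over background was not measured.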
